A study of Mus musculus with 7 samples.

Results

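Regions that carried both H3K27me3 and H3K4me3 at postnatal day 12 (P12) were 8227 of the 13028 H3K27me3 peaks called in mouse spermatocytes at that stage. A region was chosen by the P12 peak lists alone: an H3K27me3 peak that shared at least 1 bp with an H3K4me3 peak. The remaining 4801 P12 peaks, called H3K27me3-only peaks here, had no such overlap. The 5 deposited lists together held 137861 peaks.

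Chromatin came from spermatocytes of wild-type (WT) CD1 mice, taken from testes digested with trypsin and collagenase and enriched on 5% percoll. Fixation was 10 min in formaldehyde at 0.6%, followed by sonication. Of 7 samples, 5 had a peak list: H3K27me3 at P12, H3K4me3 at P12, H3K27me3 at P17, H3K4me3 at P17, and EED at P17. Each P12 list and the EED list came from 1 replicate, and each P17 histone list from 2 pooled replicates, so stage and pooling cannot be told apart. Input libraries were not analysed here. For the P17 H3K4me3 sample, the antibody given in the labels is one against H3K27me3 (ab6002), and the title was followed instead. Its list followed H3K4me3: 94.9% of P12 H3K4me3 peaks without H3K27me3 overlapped it, against 27.1% that overlapped the P17 H3K27me3 list. Peak lists hold no expression values, so the cell type was not checked against marker genes.

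H3K27me3 is written by Polycomb repressive complex 2 (PRC2), in which EZH1 or EZH2 is the methyltransferase and EED reads existing H3K27me3 and stimulates further methylation. H3K4me3 is found at promoters, most of them active or CpG-rich, but the H3K4me3 peaks here were not assigned to promoters. Promoters of developmental regulators carry both marks in embryonic stem cells and in male germ cells, a state called bivalent. Peaks come from many cells at once, so cells that carry both marks and a mixture of cells with 1 mark each cannot be told apart. Each mark and stage had 1 list, which leaves no replicate spread and no p-value, and all intervals are 95% intervals that count peaks as independent. Positions are in mm9, and the genes under the regions are not named because no mm9 annotation was used here.

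Dual-mark regions were wide, and H3K4me3 lay over most of their length. They made up 63.1% of the P12 H3K27me3 peaks but 80.7% of the base pairs, 17.4 Mb of 21.6 Mb. Their median width was 1542 bp, the 10th percentile 653 bp and the 90th 4024 bp. H3K27me3-only peaks had a median of 750 bp and a 90th percentile of 1401 bp. Of dual-mark regions, 518 were at least 5 kb wide and 89 at least 10 kb, whereas 1 H3K27me3-only peak reached 5 kb (5584 bp). The widths come from the list that chose the regions, and a wide peak meets the overlap rule more easily, so this is a description. All P12 H3K27me3 peaks were also cut by width into 10 classes of equal number. Both marks were present on 31.5% of the peaks in class 1 (187 to 556 bp) and 98.8% in class 10 (3316 to 43007 bp).

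**Figure D1:**
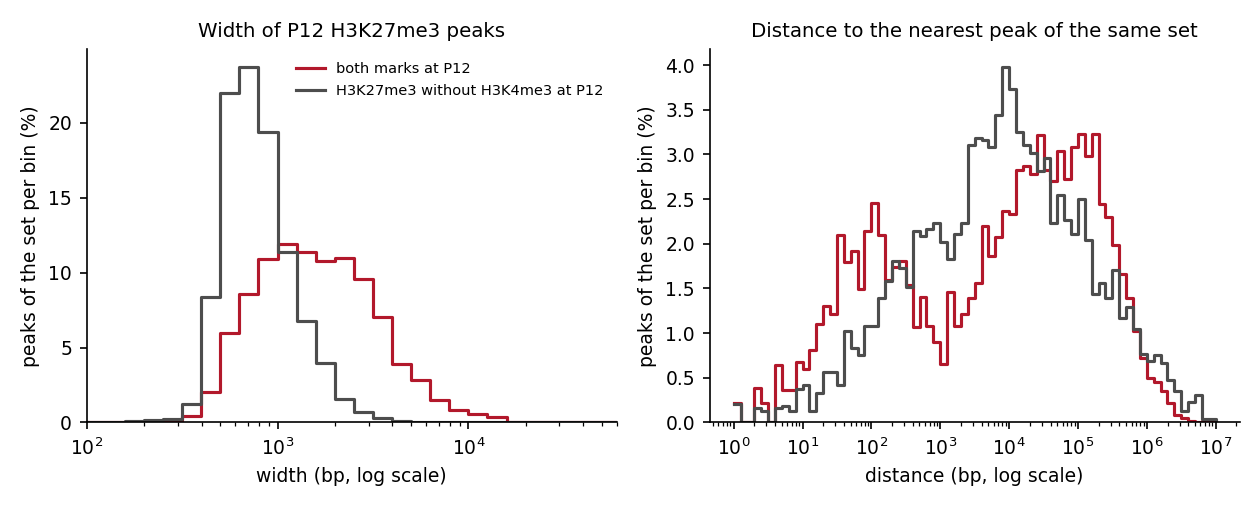
Left, widths of P12 H3K27me3 peaks with H3K4me3 (red) and without it (grey); right, distance from each peak to the nearest other peak of its own set. Axes are logarithmic in bp, the vertical axis is the percent of the set per bin, and the red distances fall into a hump under 1 kb and a second one above 10 kb.

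In the median dual-mark region, P12 H3K4me3 covered 85.9% of the H3K27me3 peak (interval 85.1% to 86.6%). At least 50% was covered in 7233 regions, and 2650 (32.2%) lay wholly inside an H3K4me3 peak. Another 1997 regions (24.3%) held at least 1 whole H3K4me3 peak, and 3580 (43.5%) were staggered, with each mark reaching past the other. These 3 arrangements went with width: the median H3K27me3 width was 968 bp for regions inside H3K4me3, 1512.5 bp for staggered ones and 3343 bp for those that held a whole H3K4me3 peak. Most regions (7835) touched 1 H3K4me3 peak, 392 touched 2 or more, and the most was 10. Seen from the other mark, 7521 P12 H3K4me3 peaks (17.0%) touched H3K27me3. The median width of those H3K4me3 peaks was 1923 bp. It was 1400 bp for the 36621 without H3K27me3.

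At the edge of the rule, 104 regions shared at most 100 bp with H3K4me3, and 142 H3K27me3-only peaks lay within 100 bp of it. The smallest overlaps were 4 bp, at chr11:33744075-33745388 and chr14:118329896-118330745. The shortest gaps were 1 bp, at chr7:3410548-3410968 and chr17:46436368-46436943. All 4 of these peaks overlapped both marks at P17 and none overlapped EED. Just inside the rule 90.4% overlapped P17 H3K4me3 and 103 of 104 P17 H3K27me3, while just outside it the shares were 78.2% and 137 of 142. EED overlapped 1 region just inside and 5 peaks just outside. Median widths on the 2 sides were 685 and 754 bp.

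Dual-mark regions lay in short chains of near-touching pieces or far apart, with few distances between. The nearest other dual-mark region was at most 1 kb away for 2721 regions, 1 to 10 kb away for 1307, and over 10 kb away for 4199. Among neighbouring pairs at most 1 kb apart (1469 pairs), the median gap was 98 bp. In 1210 of these pairs (82.4%) both pieces lay on the same P12 H3K4me3 peak. Conversely, 1126 H3K4me3 peaks touched 2 or more H3K27me3 peaks, up to 6. The bound of 10 kb was met by 49.0% of dual-mark regions (interval 47.9% to 50.04%) and by 53.3% of H3K27me3-only peaks among themselves. The order of the 2 sets depended on the bound: at 1 kb the shares were 33.1% and 25.2%, and at 50 kb 68.5% and 74.4%. When P12 peaks within 1 kb were first joined, 23.3% of the resulting dual-mark regions had another within 10 kb.

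In the P17 H3K27me3 list most of these pieces lay under 1 peak. Of the 1469 pairs at most 1 kb apart, 1451 (98.8%) lay in a single P17 H3K27me3 peak, as did 92.8% of 666 such pairs of H3K27me3-only peaks. Of 980 pairs 1 to 10 kb apart, 329 (33.6%) did, and of 5758 pairs farther apart none did. In all, 8170 dual-mark regions lay on 6390 P17 peaks: 5016 of those held 1 region, 1092 held 2 and 282 held 3 or more, up to 11. Median P17 peak widths in these 3 classes were 4422.5, 6038 and 11263.5 bp.

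Chaining regions with gaps of at most 10 kb gave 5778 groups, of which 4199 held a single region and 87 held 5 or more. The largest held 16 regions over 54.0 kb at chr18:37874244-37928220, the widest of them 3831 bp, with 37 EED peaks in the span. Groups of 15 regions lay at chr11:96111450-96228996 (118 kb, 51 EED peaks) and chr15:102738994-102873359 (134 kb, 34 EED peaks). Each touched 4 P17 H3K27me3 peaks, and all 15 regions of each overlapped both marks at P17. A group of 14 spanned 127 kb at chr6:52099988-52227199 with 47 EED peaks and no P17 H3K27me3 peak. The fifth, with 13 regions, spanned 117 kb at chr2:74485326-74602726 and held 49 EED peaks, and 12 of its regions touched EED. The 4 longest spans had 80.5 to 101 kb of P12 H3K27me3 peak each, against 27.1 kb in the chromosome 18 group, whose 16 regions were narrow.

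At P17 both marks were called on nearly every region. P17 H3K27me3 overlapped 8170 of 8227 regions (99.3%, interval 99.1% to 99.5%), where 95.3% of all P12 H3K27me3 peaks did so. It contained 8146 of them from end to end, against 93.9% of all. P17 H3K4me3 overlapped 8152 (99.1%, interval 98.9% to 99.3%), against 66.3% of all, and covered at least 50% of the length of 7619 (92.6%), against 60.6% of all. Both marks were present on 8102 (98.5%; 65.8% of all), H3K27me3 alone on 68 (0.827%; 29.5% of all), H3K4me3 alone on 50 (0.608%; 0.499% of all) and neither on 7 (0.0851%; 4.19% of all). For H3K27me3 the share exceeded that of H3K27me3-only peaks (88.5%) by 10.8 points (interval 9.95 to 11.8). Standardised over 10 width classes, the difference was 7.53 points (5.66 to 9.39), and 6.96 points (6.15 to 7.76) without class 10. The unstandardised difference was 4.39 points without peaks under 714 bp, and 16.7 points with peaks within 1 kb joined. The gap was widest in the narrowest class: in class 1, 96.1% of dual-mark regions and 73.3% of H3K27me3-only peaks had P17 H3K27me3, and in class 7 (1341 to 1731 bp) 99.8% and 98.3%. P17 H3K4me3 is tied to the rule through the same mark at P12, so its difference of 88.9 points is given only as a value. The same tie holds for the shares with both marks or with 1 mark alone. Among P12 H3K4me3 peaks, 99.2% of those in dual-mark regions and 94.9% of those without H3K27me3 overlapped P17 H3K4me3.

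The called H3K27me3 peaks around the regions were far wider at P17 than at P12, and the H3K4me3 peaks slightly wider. The whole lists differed in the same direction. All H3K27me3 peaks numbered 13028 at P12 (median 1090 bp, 21.6 Mb) and 26387 at P17 (median 2529 bp, 86.4 Mb). All H3K4me3 peaks numbered 44142 (median 1483 bp) and 51603 (median 1716 bp). The P17 H3K27me3 peak over a region had a median width of 5111 bp, and the median ratio to the P12 width was 3.27 (interval 3.21 to 3.33). The ratio was at least 2 for 6543 of 8170 regions and below 1 for none. Among the 8170 regions with a P17 H3K27me3 peak, that peak reached past both ends in 99.7%. The median extension was 994 bp at the shorter side and 2171 bp at the longer. With P12 pieces within 1 kb joined first the median ratio was 2.25. The H3K4me3 peak at the same regions had a median P17 to P12 width ratio of 1.13. One value per H3K4me3 peak gave a median gain of 268 bp for those in dual-mark regions and 336 bp for those without H3K27me3. The P17 histone lists pool 2 replicates and the P12 lists do not, and the part of this in the ratios cannot be told apart from stage.

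**Figure D2:**
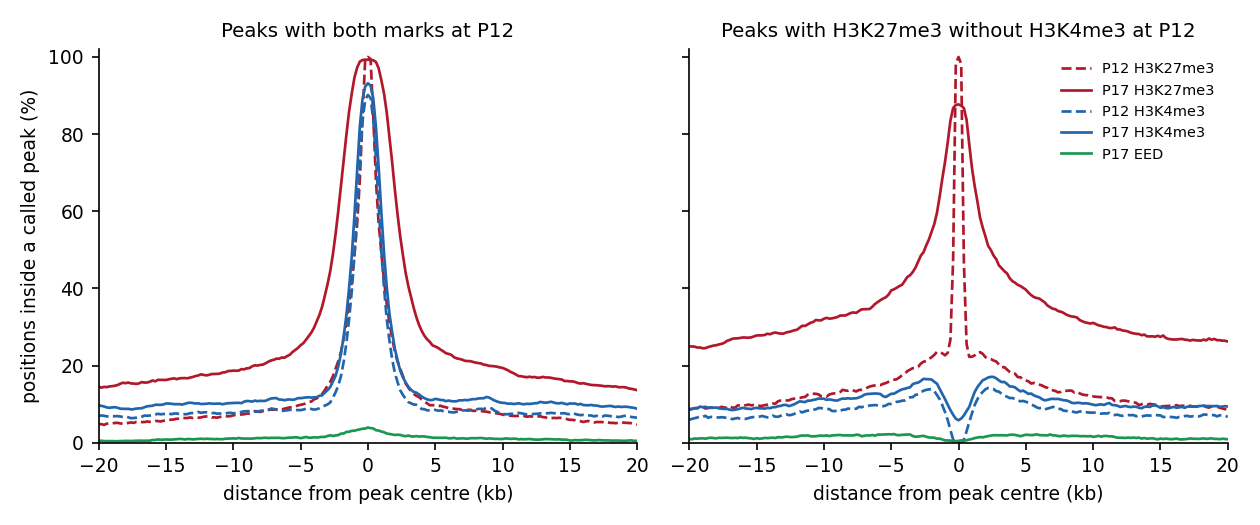
Percent of positions inside a called peak of each list, by distance in kb from the centre of dual-mark regions (left) and of H3K27me3-only peaks (right); dashed lines are P12 and solid lines P17. At 2 kb to either side of dual-mark centres, P12 H3K27me3 stood near 23.6%, P17 H3K27me3 at 66.6% and 65.7%, and P17 H3K4me3 at 23.1% and 24.4%.

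H3K4me3 covered most of the P12 regions at both stages and a smaller part of the wider P17 H3K27me3 peaks. It covered 79.0% of the base pairs of the P12 regions at P17, up from 72.3% at P12, and 51.3% of the 37.0 Mb of P17 H3K27me3 peaks over them. Region by region the cover was higher at P17 in 60.7%, lower in 8.01% and equal in 31.3%. In the 2650 regions wholly inside P12 H3K4me3 the cover could not rise, and 2574 of them lay wholly inside P17 H3K4me3 too. In 3723 regions (45.3%; 29.6% of all P12 H3K27me3 peaks) the P12 peak lay wholly inside P17 H3K4me3. Width ratios were higher for H3K27me3-only peaks, at a median of 6.18. Held to the same width class the order was the same: at 1341 to 1731 bp the medians were 3.05 for dual-mark regions and 4.36 for H3K27me3-only peaks, and the P17 peaks were 4703 and 6535.5 bp wide. At 3316 bp and over they were 1.86 and 2.09, the latter from 15 peaks. Of H3K27me3-only peaks, 1752 (36.5%) lay in a P17 peak that also held a dual-mark region. P17 H3K27me3 overlapped 81.8% of the other 3049.

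EED, the PRC2 subunit, was called at few regions, and more often at wide ones. It overlapped 737 of 8227 (8.96%, interval 8.36% to 9.59%), against 6.11% of all P12 H3K27me3 peaks and 1.23% of H3K27me3-only peaks. Among the latter, EED overlapped 3.14% of the 1752 whose P17 peak also held a dual-mark region and 0.131% of the other 3049. The dual-mark share exceeded that of all H3K27me3-only peaks by 7.73 points (7.03 to 8.42), and by 3.76 points (2.21 to 5.32) when standardised over the 10 width classes. Widths were not equal within class 10, where dual-mark regions reach 43007 bp and the 15 H3K27me3-only peaks at most 5584 bp. Without that class the difference was 3.04 points, or 1.11 points (0.143 to 2.08) at equal width. The share of dual-mark regions with EED was then 4.25%. Regions with EED had a median P12 width of 3946 bp and those without it 1439 bp. The share was 0.732% in class 1, 4.85% at 1731 to 2307 bp (class 8), 10.0% at 2307 to 3315 bp (class 9) and 34.3% (31.8% to 37.0%) in class 10. Over 1731 to 2307 bp, H3K27me3-only peaks had 5.29% (2.81% to 9.75%), an interval that takes in the dual-mark value.

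**Figure D3:**
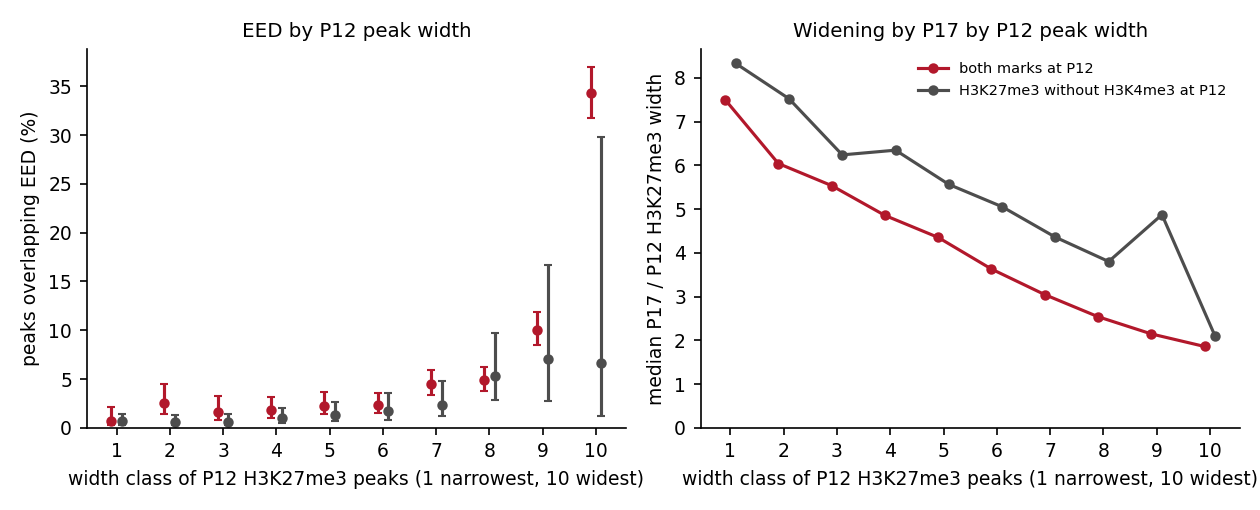
Left, percent of peaks overlapping EED in each of 10 width classes of P12 H3K27me3 peaks, with Wilson 95% intervals; right, median ratio of P17 to P12 H3K27me3 width. Dual-mark regions (red) reached 34.3% with EED in class 10, where the H3K27me3-only set (grey) had 15 peaks and an interval of 1.19% to 29.8%.

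The EED list lay mostly on dual-mark regions. Of 2701 EED peaks, 2069 (76.6%, interval 74.97% to 78.2%) touched one, 75 touched an H3K27me3-only peak and 575 touched no P12 H3K27me3 peak. EED peaks on dual-mark regions had a median width of 366 bp and the others 182 bp. Of P12 H3K4me3 peaks, 906 of 7521 in dual-mark regions and 0.186% of those without H3K27me3 overlapped EED. EED peaks were concentrated: 293 regions with 3 or more EED peaks (3.56%, against 2.26% of all P12 H3K27me3 peaks) held 71.0% of the overlaps. Class 10, with 40.5% of the regions' base pairs, held 77.0%. These are counts of called peaks, some of which lie only a few bp apart, so they do not measure EED cover. There were 17 regions with 10 or more EED peaks (0.207%, against 0.13% of all). Each held a whole H3K4me3 peak, which cannot be told apart from their large width. The median width was 2595 bp for regions with 1 EED peak, 8570.5 bp with 5 to 9 and 13731 bp with 10 or more. Their median part under P12 H3K4me3 was 79.1%, 60.0% and 54.4%, a fall that cannot be told apart from width. Within class 10 that part was 61.1% (59.6% to 62.9%) for regions with EED and 63.9% (62.1% to 65.7%) for those without.

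Within regions that had EED, the EED base pairs lay more under H3K4me3 than beside it. P12 H3K4me3 covered 62.3% of their length and 74.3% of their EED. EED covered 41.5% of the base pairs under P12 H3K4me3 and 23.7% of those outside it. With P17 H3K4me3 the values were 41.0% and 19.8%. In class 10 alone the P12 values were 42.6% and 23.9%.

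The arrangement of the marks went with EED over all widths, and that order did not recur within the 3 widest classes. Over all widths EED overlapped 21.4% of regions holding a whole H3K4me3 peak, 5.87% of staggered ones and 3.74% of those inside H3K4me3. In class 10 the 3 shares were 35.3% (32.4% to 38.3%), 30.1% (24.7% to 36.1%) and 35.7% (20.7% to 54.2%), the last from 28 regions, and in class 9 they were 9.58%, 10.7% and 9.35%. In class 8 the order was the reverse of that over all widths, at 2.89% (1.41% to 5.85%), 5.28% (3.84% to 7.22%) and 5.74% (3.31% to 9.77%), with intervals that overlap.

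Within each of the 3 widest classes, regions with a neighbour had EED more often than those alone. The classes hold the width of single called P12 peaks, and 98.8% of pairs at most 1 kb apart lay in a single P17 H3K27me3 peak. The comparison was not repeated with such pieces joined, so their joined width was not held equal. Over all widths EED overlapped 4.50% of regions alone, 8.16% of those in groups of 2, 16.0% in groups of 3 to 4 and 29.6% in groups of 5 or more. In class 10, EED overlapped 48.5% (44.8% to 52.3%) of regions with another dual-mark region within 10 kb and 18.8% (15.9% to 22.1%) of those alone. Their median widths were 4975.5 and 4192 bp. At 2307 to 3315 bp, where the medians were 2705 and 2710 bp, the shares were 17.8% (14.7% to 21.3%) and 4.32% (3.06% to 6.07%). At 1731 to 2307 bp, 42 of 525 regions with a neighbour and 13 of 608 alone (2.14%) had EED. Regions in groups of 5 or more reached 60.1%, 37.5% and 19.8% in these classes. Regions of 1 group share a stretch of genome, so these intervals are too narrow.

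Regions with EED also had wider P17 H3K27me3 within the P12 width classes compared here. At 2307 to 3315 bp, the 125 regions with EED had a median P17 width of 9400.5 bp (8349 to 11935) and the 1121 without it 5722.5 bp (5573 to 5865). Their P17 to P12 ratios were 3.56 and 2.09. At 1341 to 1731 bp, 45 regions with EED stood at 8183 bp (5507 to 11151) and 964 without it at 4593 bp (4467 to 4782). In class 10 the P17 medians were 16121 and 7890 bp, where the P12 medians differed too, at 6187.5 and 4131 bp. In the 2307 to 3315 bp class another dual-mark region stood within 10 kb of 75.2% of regions with EED and 38.8% of those without. The part of such neighbours in the wider P17 peaks was not tested.

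The widest regions show the lists side by side. The widest, chr6:52149265-52192271 (43.0 kb), held 10 P12 H3K4me3 peaks over 52.5% of its length, 10 P17 H3K4me3 peaks over 63.6% and 25 EED peaks over 69.9%, with no P17 H3K27me3 peak. The second, chr5:106876163-106901465 (25.3 kb), had 5 P12 and 6 P17 H3K4me3 peaks, 8 EED peaks over 74.2%, and a P17 H3K27me3 peak of 30.6 kb. At chr8:12380748-12403659 (22.9 kb), 15 EED peaks covered 58.2% and the P17 H3K27me3 peak was 26.5 kb. Those 3 regions were alike in having EED over more than 50% of their length. The next in width had less EED: chr17:86006522-86028592 (22.1 kb) had 10 EED peaks over 18.8%, and chr9:62981240-63001345 (20.1 kb) had 5 over 6.41%. Their P17 H3K27me3 peaks were 30.8 and 24.2 kb wide. By number of EED peaks, the chromosome 6 region was followed by chr5:140016828-140035817 with 20 over 53.6% of 19.0 kb, inside a P17 H3K27me3 peak of 34.6 kb. Then came chr8:12380748-12403659, chr4:109645888-109660989 and chr12:57788554-57802284 with 15 each. By contrast, the region of median width first met on chromosome 1, chr1:136130499-136132042 (1544 bp), lay wholly inside 1 H3K4me3 peak at both stages and in a P17 H3K27me3 peak of 3865 bp, with no EED.

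**Figure D4:**
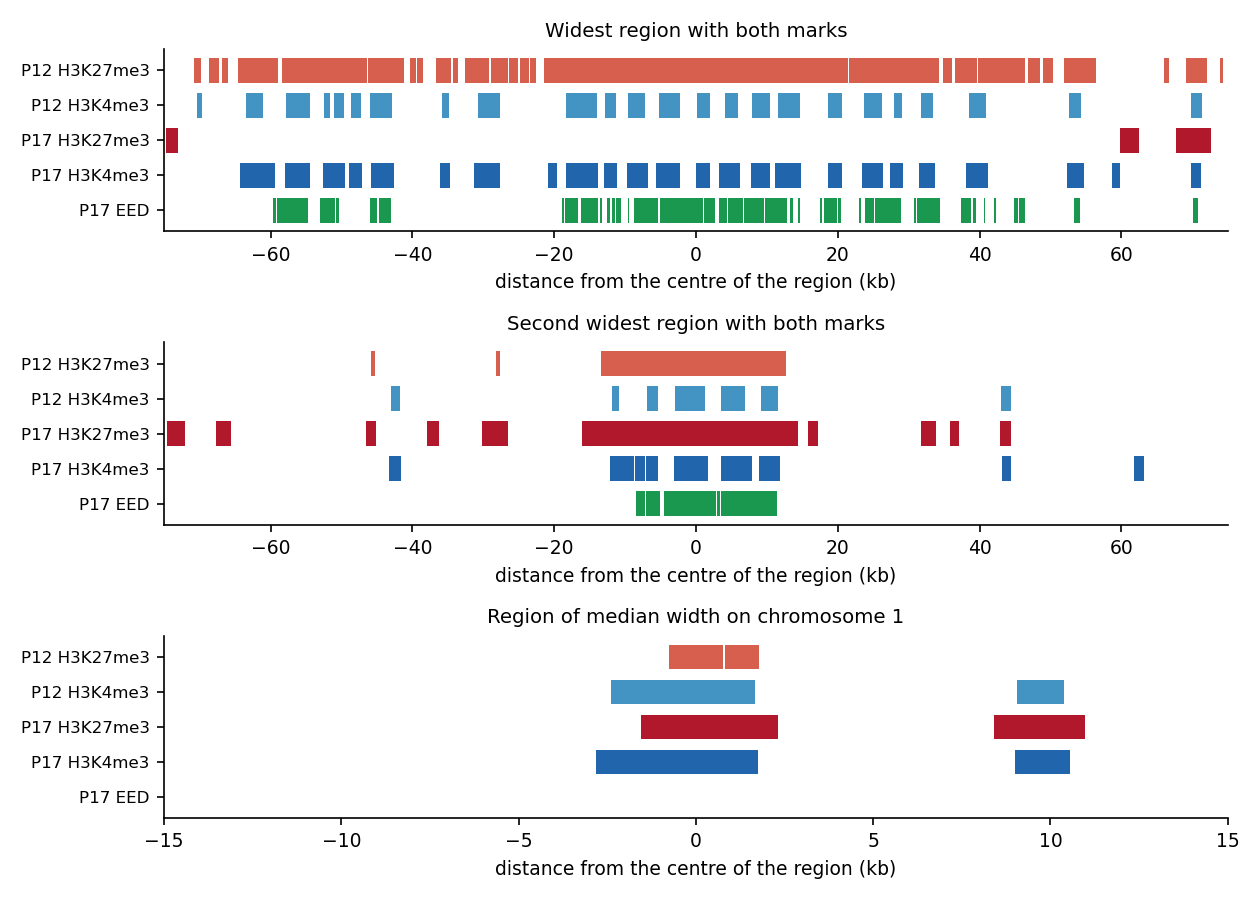
Called peaks of the 5 lists around the widest, the second widest and a median-width dual-mark region; bars are peaks and the horizontal axis is distance in kb from the region's centre. The widest region has 25 EED peaks and no P17 H3K27me3 bar over it, whereas the second widest lies under a P17 H3K27me3 peak of 30.6 kb.

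Few regions lost a mark from the lists, and 1 place gave many of them. Of the 57 regions without P17 H3K27me3, 14 lay in a single stretch of 133 kb between neighbouring P17 peaks, chr6:52097777-52230508. The stretch held 26 P12 H3K27me3 peaks, 22 P17 H3K4me3 peaks and 47 EED peaks. Of its 14 dual-mark regions, 13 overlapped P17 H3K4me3 and 8 EED. The 3 widest regions without P17 H3K27me3 were all in it: the 43.0 kb region above, chr6:52192319-52204999 (12.7 kb, 7 EED peaks) and chr6:52112350-52122006 (9.66 kb, 4 EED peaks). The absence of a called P17 peak where EED peaks are dense is a fact about the list and was not traced to signal. The other 43 regions were narrow, with a median of 646 bp, and lay on 17 chromosomes. Of these, 37 kept P17 H3K4me3 and 1 had EED. P12 H3K4me3 covered a median of 100% of their length.

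The 75 regions without P17 H3K4me3 had a median width of 814 bp and a median of 540 bp shared with P12 H3K4me3. H3K27me3 was called at P17 on 68 of them, and 2 had EED. The widest were chr2:172556845-172560940 (4096 bp), chr1:42759010-42763003 (3994 bp) and chr16:91230841-91234566 (3726 bp). At P12, H3K4me3 covered 22.1%, 33.8% and 26.1% of them. Each lay in a far wider P17 H3K27me3 peak, of 15.4, 35.3 and 23.9 kb, and only the chromosome 1 region of these 3 had EED, 1 peak over 41.2% of its length.

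Regions were spread over all autosomes and the X. The share of P12 H3K27me3 peaks with both marks ran from 50.4% on chromosome 8 to 75.04% on chromosome 10 among autosomes and was 84.2% (76.6% to 89.6%) on the X, from 120 peaks. All 101 X-linked regions overlapped both marks at P17. None overlapped EED, against 9.07% of autosomal regions. A count of 0 of 101 allows a share of up to 2.97% when 3 counts are taken as its limit, and the Wilson interval reaches 3.66%. X-linked regions were narrower, with a median of 934 bp against 1545.5 bp. In the class of 911 to 1090 bp, all chromosomes together, 2.25% of dual-mark regions had EED. On autosomes the EED share ran from 3.51% on chromosome 7 to 19.4% on chromosome 13, and the median widths on these 2 were 1666 and 1466 bp.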

How the data were processed

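Chromatin immunoprecipitation sequencing lists of 5 samples were used. Reads were handled with Bowtie, SAMtools and HTSeq against mm9, per the submitters' processing notes, which give no role or version. The authors' deposited lists hold peak starts and ends only, called with MACS per the peak names, at level 5 of a false discovery rate per the file names. They hold no score or depth, so the depth is unknown. For caller settings and use of input, the sources used here state nothing. Peak numbers missing from the lists came to 13.1% for P12 H3K27me3, 11.0% for EED and 0.255% for P17 H3K4me3. None were missing for P12 H3K4me3 and P17 H3K27me3. The P12 and P17 H3K27me3 lists therefore differ in this, and the reason was not tested. The deposited gene-body read counts were not used, since they give no positions.

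Overlaps (at least 1 bp), Wilson and Newcombe intervals for shares and their differences, and order-statistic intervals for medians were computed with numpy 2.4.6, pandas 2.3.3 and scipy 1.17.1. The overlap, gap, joining and standardising steps were tested on simulated data, and the Wilson, Newcombe and median intervals were not. A region's P17 peak is the one sharing most base pairs with it. The 10 width classes hold equal numbers of P12 H3K27me3 peaks. Differences standardised over these classes, also called at equal width, weight classes by size. Named regions are the 5 widest, the 5 with most EED, the 5 largest groups, the 3 widest without each P17 mark, the median-width one and those at the edge of the rule. Members and tests were chosen with earlier results of these data known.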

Additional observations from a re-analysis of the deposited data

How the results depend on the processing

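The EED and P17 H3K27me3 differences from H3K27me3-only peaks kept their sign in every alternative run. Requiring 50% of the peak under H3K4me3 (7233 regions) gave 99.4% with P17 H3K4me3, 98.9% with both marks, 8.06% with EED, an EED difference of 6.83 points, width ratios of 3.18 for H3K27me3 and 1.12 for H3K4me3, and 40.0% within 10 kb of another. Requiring the P17 mark to cover 50% gave 92.6% for H3K4me3 and 92.0% for both. Without peaks under 714 bp the shares were 99.6% for P17 H3K27me3, 99.4% for H3K4me3, 99.1% for both and 10.1% for EED, the P17 H3K27me3 difference 4.39 points, the H3K27me3 ratio 2.95 and the neighbour share 44.8%. Peaks within 1 kb were joined before the rule was applied, so the H3K27me3-only set changed too. Joining gave 6653 regions, a P17 H3K27me3 difference of 16.7 points, a ratio of 2.25 and a neighbour share of 23.3%. Standardising over the 10 width classes gave 7.53 points for P17 H3K27me3 and 3.76 for EED, with widths still unequal within class 10. Neighbour bounds of 5 and 50 kb gave 42.6% and 68.5%. Chosen after seeing the data, leaving out the chromosome 6 stretch gave 99.5% with P17 H3K27me3, and leaving out width class 10 gave 4.25% with EED and a difference of 3.04 points. For the values that moved, the cause was not tested. The lists carry no scores, so a stricter calling threshold could not be tried. No paired analysis was possible because the P17 replicates were pooled and P12 has 1 replicate. The unknown depth limits every statement that a peak is missing.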
